A study of Homo sapiens with 3 samples.

Results

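The stretch of chromosome 9 that holds RAD23B and KLF4 was examined for its contacts with the breast cancer risk region at 9q31.2. Its members were the HindIII target fragments whose midpoint lay between positions 110040000 and 110260000 (GRCh37), taken with every captured fragment of the risk region. There were 49 such fragments among 2949 near cis targets of 9q31.2, which are those within 5 Mb of the captured region, and among 17969 near cis targets of all 6 captured regions of the series. With the 100 captured fragments they formed 4900 of the 294900 near cis pairs of 9q31.2. RAD23B spans 110045517 to 110094469, and 19 fragments overlapped it. KLF4 spans 110247133 to 110252047 on the minus strand, and a single fragment of 11219 bp (110244650 to 110255868) contained the whole gene. A further 27 fragments lay between the genes and 2 lay between KLF4 and the end of the stretch. The choice used position alone and no contact count.

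The series counted contacts by Capture Hi-C in 2 breast cancer lines and 1 lymphoblastoid line. BT483 is a line from an invasive ductal carcinoma at its primary site. SUM44, also a breast cancer line, was taken from a pleural effusion. GM06990 is a line of B lymphocytes. Cells of all 3 lines were fixed for 5 min in 2% formaldehyde. BT483 grew in 20% serum with insulin and was lysed with 0.25% trypsin. SUM44 grew in 10% serum with 1 nM estradiol and was lysed by douncing. GM06990 grew in 15% serum and was also dounced. The lysis and the medium therefore differed between the lines together with their origin, and cannot be told apart from it. Each line is a single sample with 2 replicates in separate count columns. No source says that these were separate cultures, so the p-values measure the spread between these columns, which may be technical. Contact counts hold no expression values, so the lines could not be checked against markers.

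In Capture Hi-C, DNA ends that lie near each other in fixed nuclei are ligated after the genome has been cut with a restriction enzyme (here HindIII), and ligated pairs with an end in a chosen region are pulled out by hybridisation to probes. The contact frequency of any region falls with genomic distance, so a contact level is read against the level usual at that distance. KLF4 encodes a zinc finger transcription factor that directs epithelial differentiation and is one of the factors used to reprogram somatic cells to pluripotency. RAD23B encodes a partner of XPC in the recognition of damaged DNA during nucleotide excision repair, and it also carries ubiquitinated proteins to the proteasome.

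The promoters of both genes are given because the question is whether the risk region reaches the fragments that hold the gene starts. RefSeq records for build GRCh38.p14 matched both symbols, and each sequence runs 5′ to 3′ from 250 bases before to 50 bases after the gene start, with GC boxes (GGGCGG or its complement CCGCCC) in capitals. The KLF4 sequence lies at chr9:107489720-107490019 on the minus strand and the RAD23B sequence at chr9:107283029-107283328 on the plus strand of that build.
KLF4: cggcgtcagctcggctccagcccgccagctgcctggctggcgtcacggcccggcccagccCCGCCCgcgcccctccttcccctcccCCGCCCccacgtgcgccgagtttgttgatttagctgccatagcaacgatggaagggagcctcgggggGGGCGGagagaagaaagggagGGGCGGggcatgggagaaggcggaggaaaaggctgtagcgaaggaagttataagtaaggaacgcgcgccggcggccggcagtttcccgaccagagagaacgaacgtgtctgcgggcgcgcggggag
RAD23B: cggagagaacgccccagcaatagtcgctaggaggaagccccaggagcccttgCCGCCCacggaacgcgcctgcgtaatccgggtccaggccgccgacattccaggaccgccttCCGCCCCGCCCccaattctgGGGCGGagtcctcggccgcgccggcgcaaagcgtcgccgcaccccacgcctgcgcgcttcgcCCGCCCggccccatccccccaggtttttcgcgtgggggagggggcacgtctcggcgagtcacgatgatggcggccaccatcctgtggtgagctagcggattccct
The KLF4 promoter is 69.0% G or C with 33 CpG sites, and the RAD23B promoter is 71.0% G or C with 37 CpG sites. A search of both strands found 4 GC boxes in KLF4 and 5 in RAD23B, of which 1 pair in RAD23B overlaps, and 45.0% of the 35116 promoters in the RefSeq table hold at least 1. An E-box (CACGTG) occurred once in KLF4 and was not found in RAD23B, against 7.26% of all promoters. Neither window held the HindIII site AAGCTT, which 5.84% of promoters hold, nor a TATAAA, which 11.5% hold. The sequence CCACCC, a form of the CACCC box that 34.3% of promoters hold, was not found in these windows. Other forms of that box, such as CACCC alone, were not searched for.

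The near cis contacts of 9q31.2 numbered 26894 and 131452 in BT483, 143820 and 127062 in SUM44, and 72672 and 63194 in GM06990. BT483 replicate 1 was by far the shallowest library. The captured region ran from 110758376 to 111099364, so the stretch lay 498 to 718 kb from its near end, with KLF4 at 506 to 511 kb and RAD23B at 664 to 713 kb. Contacts were read as observed over expected, where the expected count came from the distance between the fragments and from the capture efficiency of the captured fragment. A value of 1 is the level usual at that distance in that library. Read pairs were counted without molecular identifiers, so the intervals given below cover counting error only.

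The stretch as a whole lay above the distance background in every library, and its level climbed from RAD23B to KLF4. It took 5.87% and 5.81% of the near cis contacts of 9q31.2 in BT483, 6.28% and 6.16% in SUM44, and 5.24% and 5.61% in GM06990. Observed over expected was 1.60 and 1.43 in BT483, 1.56 and 1.55 in SUM44, and 1.33 and 1.46 in GM06990. All 6 libraries were above 1, and BT483 overlapped GM06990 while SUM44 did not. For comparison, 73 fragments at the same distances on the telomeric side had 0.624 and 0.740 in BT483, 0.723 and 0.705 in SUM44, and 0.520 and 0.531 in GM06990. Every library had more contacts per expected contact on the KLF4 side than on the telomeric side. With 2 replicates against 2, the smallest two-sided p that an exact permutation test allows is 0.333, so these levels were compared by their spread and not tested.

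**Figure D1:**
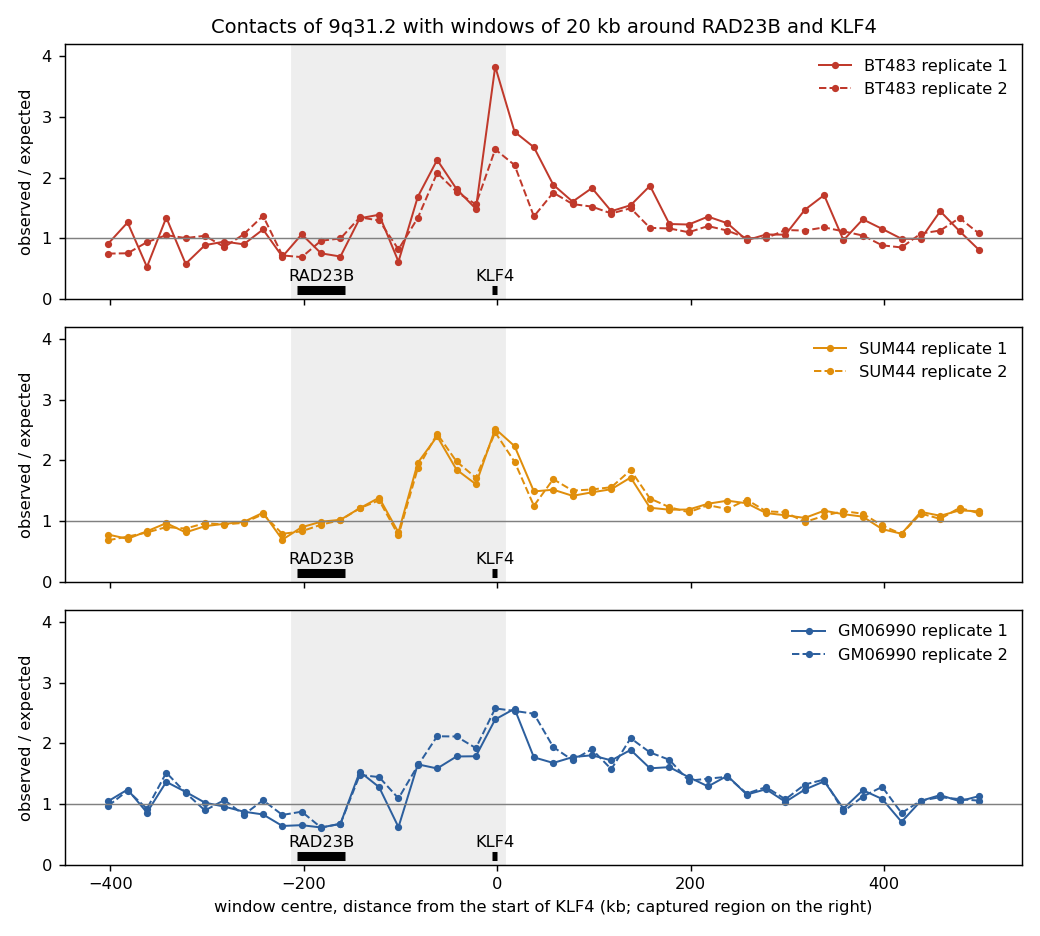
Observed over expected contacts of the captured region with 20 kb windows, against the distance of the window centre from the start of KLF4 in kb (the captured region lies to the right); solid and dashed lines are replicates 1 and 2 of each line, grey shading is the stretch and black bars are the genes. The windows over RAD23B lie near 1 or below it, the window that holds KLF4 is between 2.39 and 3.83 in all libraries, and BT483 replicate 1 stands highest there.

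KLF4 lay in the part of the stretch with the highest contact level. The KLF4 fragment had 130 and 346 contacts in BT483, 416 and 325 in SUM44, and 182 and 161 in GM06990. Its observed over expected ratio was 5.26 and 2.68 in BT483, 2.84 and 2.54 in SUM44, and 2.62 and 2.79 in GM06990. All 6 libraries lay well above 1, and 5 of them fell between 2.54 and 2.84, while BT483 replicate 1 stood apart above them. The counting interval of that library was 4.39 to 6.24, and that of BT483 replicate 2 was 2.41 to 2.98, so the replicates of BT483 differed by more than counting error. Means were 3.97 ± 1.82 in BT483, 2.69 ± 0.216 in SUM44 and 2.70 ± 0.114 in GM06990 (SD, n = 2 each).

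Among the 2949 near cis targets of 9q31.2 the KLF4 fragment ranked 1 and 30 in BT483, 24 and 77 in SUM44, and 33 and 23 in GM06990. It was a long fragment, longer than all but 4.04% of the targets, whose median length was 2282 bp. Over all 2949 targets length and observed over expected had a Spearman correlation of 0.18 in BT483, 0.19 in SUM44 and 0.37 in GM06990. The 170 other targets of at least 10000 bp had a median observed over expected ratio of 0.712 in BT483, 0.749 in SUM44 and 0.831 in GM06990, and the number of them above the KLF4 fragment was 0 in BT483, 1 in SUM44 and 0 in GM06990. When fragment length was added to the background, the KLF4 fragment was at 3.10 in BT483, 2.25 in SUM44 and 1.97 in GM06990. The part of length in the KLF4 level was not tested.

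**Figure D2:**
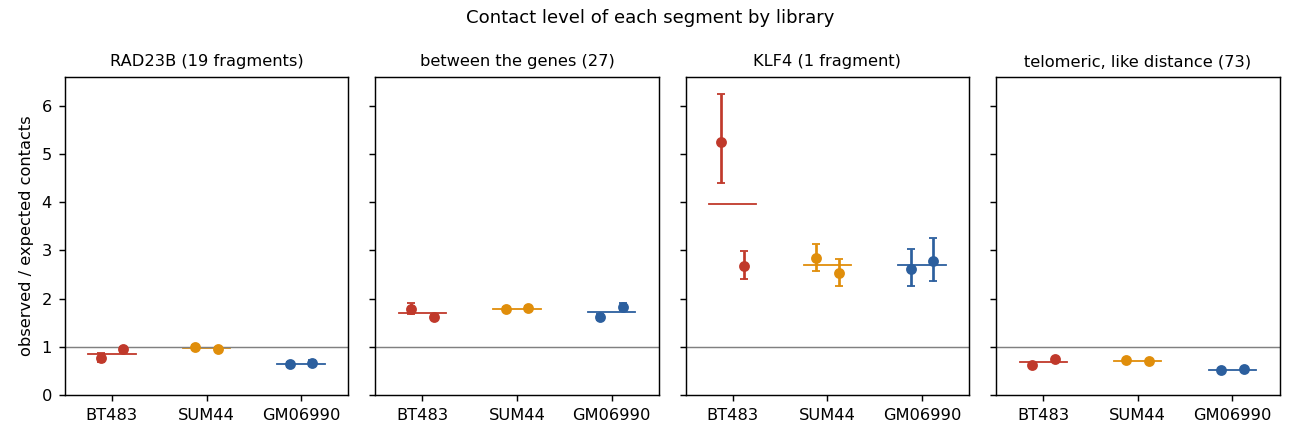
Observed over expected contacts of 4 sets of target fragments in each library; points are the 2 replicates with 95% Poisson intervals, horizontal bars their mean, and the grey line marks 1. The KLF4 fragment lies above 2.5 in all libraries and the telomeric set below 0.75, and the replicates of SUM44 and GM06990 lie closer together than those of BT483 for KLF4.

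The neighbours of the KLF4 fragment shared its level. The fragment 110241988 to 110244649, next to it on the side of the gene's 3′ end, had 4.55 and 2.88 in BT483, 3.15 and 3.23 in SUM44, and 2.42 and 2.60 in GM06990. The fragment 110238956 to 110241987 beside it had 3.17 and 2.46 in BT483, 2.50 and 2.48 in SUM44, and 2.33 and 3.07 in GM06990. The fragments 110255869 to 110257067 and 110257068 to 110259991, on the side of the gene start, were between 1.66 and 3.54 in every library. In both of them the highest value was again that of BT483 replicate 1. The raised level went on beyond the stretch. The next 20 kb window towards the captured region, 110260001 to 110280000, had 2.75 and 2.21 in BT483, 2.24 and 1.98 in SUM44, and 2.57 and 2.53 in GM06990. Every further window up to 110500000 was also above 1 in every library, so the raised level was not particular to the stretch. The window 110380001 to 110400000, for example, had 1.54 and 1.49 in BT483, 1.72 and 1.84 in SUM44, and 1.89 and 2.09 in GM06990. The window that holds KLF4 had 3.83 and 2.47 in BT483, 2.52 and 2.46 in SUM44, and 2.39 and 2.58 in GM06990.

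A second rise lay between the genes, apart from KLF4. The fragment 110195013 to 110201199 had 3.09 and 3.26 in BT483, 3.39 and 3.38 in SUM44, and 2.20 and 2.97 in GM06990. In SUM44 it stood above the KLF4 fragment, and in BT483 replicate 1 and GM06990 replicate 1 below it. Its neighbour 110183823 to 110195012 had 2.87 and 2.26 in BT483, 2.78 and 2.83 in SUM44, and 1.88 and 2.71 in GM06990. The longest fragment of the stretch, 110141516 to 110168087 (26572 bp), lay between this rise and RAD23B and was at 0.583 and 0.949 in BT483, 0.936 and 0.837 in SUM44, and 0.723 and 1.21 in GM06990. Over all 27 fragments between the genes the ratio was 1.79 and 1.61 in BT483, 1.78 and 1.80 in SUM44, and 1.61 and 1.83 in GM06990, with the lines overlapping.

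RAD23B lay at or below the distance background, and its level was lower in GM06990 than in the breast lines. Its 19 fragments together had 257 and 1743 contacts in BT483, 1939 and 1620 in SUM44, and 635 and 562 in GM06990. The observed over expected ratio was 0.766 and 0.944 in BT483, 0.992 and 0.955 in SUM44, and 0.638 and 0.659 in GM06990. The counting intervals of both SUM44 replicates included 1, whereas those of the other 4 libraries lay below it. All 4 breast libraries were above both GM06990 libraries. Means were 0.855 ± 0.126 in BT483, 0.974 ± 0.0260 in SUM44 and 0.649 ± 0.0151 in GM06990 (SD, n = 2 each). The telomeric fragments at like distance were also lower in GM06990 than in either breast line, as given above.

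The fragment that holds the start of RAD23B (110041018 to 110050275, 9258 bp) did not stand out among the 19. It had 12 and 61 contacts in BT483, 82 and 71 in SUM44, and 34 and 34 in GM06990. The ratio was 0.717 and 0.657 in BT483, 0.843 and 0.842 in SUM44, and 0.678 and 0.788 in GM06990, with BT483 and GM06990 overlapping. The remaining 18 RAD23B fragments ranged up to 1.58 in BT483, 1.41 in SUM44 and 1.17 in GM06990. The KLF4 level was 6.86 and 2.84 times the RAD23B level in BT483, 2.87 and 2.66 times in SUM44, and 4.11 and 4.22 times in GM06990. That ratio was lower in SUM44 than in GM06990, and in BT483 its replicates fell on either side of GM06990.

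Counted by fragment, 22 of the 49 members lay above the background in all 6 libraries, against 11.7% of all near cis targets of 9q31.2. That share covers targets on both sides of the captured region. The 22 members were 0 of the 19 RAD23B fragments, 19 of the 27 fragments between the genes, the KLF4 fragment and both fragments beyond it. A further 6 of 49 members were above the background in no library, against 22.4% of all targets, and 4 of those were RAD23B fragments. Both SUM44 replicates exceeded both GM06990 replicates at 26 of 49 members, against 27.4% of all targets, and 17 of those 26 were RAD23B fragments. All 4 breast libraries exceeded both GM06990 libraries at 10 members (14.3% of all targets), of which 7 were RAD23B fragments, and fell below both at 3 members (15.5% of all targets), all between the genes. Both BT483 replicates exceeded both GM06990 replicates at 12 members, against 21.5% of all targets. The KLF4 fragment was in none of the groups set against GM06990.

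**Figure D3:**
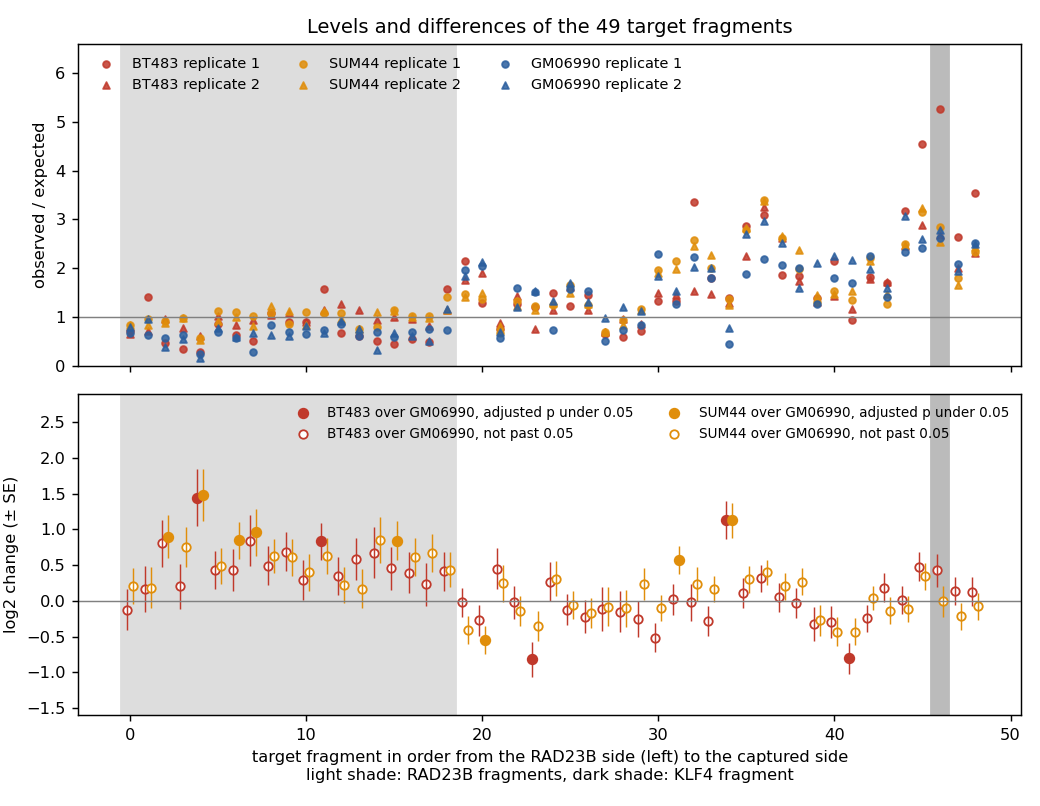
Upper panel, observed over expected contacts of the 49 target fragments in order from RAD23B (left) to the captured side, with each line in a colour and each replicate in a shape; lower panel, log2 changes against GM06990 with their SE, filled where the adjusted p was under 0.05. The RAD23B fragments lie near or below 1 and most of their log2 changes are positive, and the KLF4 fragment has no filled point.

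The difference between lines was tested for each target fragment with the counts summed over all captured fragments. Of 5466 target fragments of the 3 risk loci, 12.7% differed between BT483 and GM06990 by edgeR's quasi-likelihood test, and 5 of the 49 members did. Of these 3 were higher in BT483, as were 7.5% of all fragments, and 2 were lower. Between SUM44 and GM06990 24.3% of all fragments differed, and 8 of the 49 members did. Of these 7 were higher in SUM44, as were 13.8% of all fragments, and 1 was lower. Among the 1006 tested fragments of 9q31.2 alone, the members included, 5.86% differed in BT483 and 10.1% in SUM44. The share of members that differed was thus below that of the 3 loci together and above that of 9q31.2 in both comparisons, and how the members compare with other fragments depends on which of these is taken. Between BT483 and SUM44 0.256% of all fragments differed, 0.0549% of all being higher in BT483, and 0 of the 49 members did. There, 4 members had an unadjusted edgeR p under 0.05, as did 14.9% of all fragments. DESeq2 called 0 members and 0.0549% of all fragments. The comparisons of the breast lines share the GM06990 libraries, so they are given side by side and are not independent.

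The split of higher and lower calls depended on the scaling. A single factor per library for all 3 loci, with no distance background, gave 1 higher and 4 lower members in BT483 with TMM factors and the same counts with DESeq2's size factors, and 2 higher and 5 lower (TMM) or 1 higher and 6 lower (size factors) in SUM44. Over all 5466 fragments the share that differed was then 34.2% (TMM) and 34% (size factors) in BT483, and 29% (TMM) and 28.1% (size factors) in SUM44. With the near cis total of each locus as the scale the members were 3 higher and 2 lower in BT483, and 6 higher and 0 lower in SUM44, where 16.4% of all fragments differed in BT483 and 26.9% in SUM44. DESeq2 with the distance offsets called 1 member in each comparison with GM06990, the same fragment of 336 bp described below, and 4.52% of all fragments in BT483 and 12.4% in SUM44.

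Nearly all RAD23B fragments had positive log2 changes relative to GM06990 under the distance offsets. In BT483 18 of 19 had a positive log2 change, with a median of 0.43 against 0.06 over all 5466 fragments, and 2 passed the test. In SUM44 19 of 19 were positive, with a median of 0.63 against 0.09 over all fragments, and 5 passed the test. Of the called fragments, those that begin at 110064745, 110061434 and 110069038 reached the count filter only through the breast lines. For them the filter favours calls that are higher in the breast lines, so these calls are not support for a difference. With TMM factors the RAD23B median was 0.07 in BT483 and 0.22 in SUM44, with 13 and 15 of the 19 positive, and with size factors it was 0.05 and 0.13, with 12 of 19 positive in each. With near cis totals the median over all fragments was 0.23 in BT483 and that of RAD23B 0.43. With fragment length added to the background the RAD23B median was 0.49 in BT483 and 0.59 in SUM44. Without BT483 replicate 2 the BT483 median was 0.12, with 10 of 19 positive.

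The RAD23B fragment with the largest log2 change in both lines was the shortest of the stretch, 110064745 to 110064816, with a length of 72 bp. It had 5 and 58 contacts in BT483, 58 and 47 in SUM44, and 12 and 7 in GM06990. Its level was low in every library, at 0.288 and 0.606 in BT483, 0.574 and 0.536 in SUM44, and 0.232 and 0.158 in GM06990, and the breast libraries lay above GM06990. The log2 change was 1.44 (SE 0.40) in BT483, with an edgeR adjusted p of 0.0219, and 1.48 (SE 0.37) in SUM44, with an edgeR adjusted p of 0.00563. Both comparisons rest on the 12 and 7 contacts of GM06990, and the fragment reached the count filter only through the breast lines. The BT483 difference passed in 6 of 13 alternatives. It did not pass without BT483 replicate 2 (0.54), without GM06990 replicate 1 (1.77) or replicate 2 (1.22), with TMM or size factors, with DESeq2, or with fragment length in the background. The SUM44 difference passed in 10 of 13, and not without GM06990 replicate 2 (1.25), with size factors or with DESeq2.

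The other called RAD23B fragment in BT483 was 110076468 to 110077696, with 28 and 112 contacts in BT483, 111 and 100 in SUM44, and 39 and 30 in GM06990, and a log2 change of 0.83 (edgeR adjusted p = 0.0429). In SUM44 the 4 others were 110061434 to 110062087 (log2 change 0.90), 110067866 to 110069037 (0.85), 110069038 to 110070412 (0.96) and 110084849 to 110086630 (0.84), with edgeR adjusted p-values between 0.0197 and 0.0385. The RAD23B calls were lost under other scalings. With TMM factors 0 RAD23B fragments passed in BT483 and 1 in SUM44, and with size factors and with DESeq2 0 passed in either line. The number of RAD23B fragments that passed fell in both comparisons without a replicate of SUM44 or GM06990. When 1 replicate was left out, the share of all fragments that differed moved the same way as that number. The RAD23B median in SUM44 over GM06990 was 0.66 without SUM44 replicate 1, 0.60 without SUM44 replicate 2 and 0.63 without either BT483 replicate. It was 0.71 without GM06990 replicate 1 and 0.56 without GM06990 replicate 2. In BT483 over GM06990 the median was 0.53 without BT483 replicate 1, 0.12 without BT483 replicate 2 and 0.41 without either SUM44 replicate. There it was 0.44 without GM06990 replicate 1 and 0.47 without GM06990 replicate 2.

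The fragment with the RAD23B start did not pass, with a log2 change of -0.12 in BT483 (edgeR adjusted p = 0.837) and 0.21 in SUM44 (edgeR adjusted p = 0.577). In 20 kb windows 19% of 1450 windows differed in BT483 and 41.6% in SUM44, and of the 11 windows of the stretch 1 and 2 did. The window 110060001 to 110080000, inside RAD23B, passed in both lines, and its log2 change was 0.51 in BT483 (edgeR adjusted p = 0.0321) and 0.65 in SUM44 (edgeR adjusted p = 0.00427). The window 110080001 to 110100000 passed in SUM44 only, with a log2 change of 0.60 (edgeR adjusted p = 0.0158), against 0.39 in BT483 (edgeR adjusted p = 0.147). The difference between BT483 and SUM44 in that window was -0.21 on the log2 scale and did not pass (edgeR adjusted p = 0.494).

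KLF4 contact showed no difference between the lines that passed the test. The log2 change of the KLF4 fragment was 0.43 (SE 0.23) in BT483 over GM06990 (edgeR adjusted p = 0.248) and -0.0051 (SE 0.22) in SUM44 over GM06990 (edgeR adjusted p = 0.989). It was 0.44 (SE 0.22) in BT483 over SUM44 (edgeR adjusted p = 0.355). One library decided the BT483 values. Without BT483 replicate 1 the change against GM06990 was -0.010 and that against SUM44 was -0.0067, whereas without BT483 replicate 2 both were 0.96 and both passed (edgeR adjusted p = 0.000637 and 0.00148). In SUM44 over GM06990 the change was -0.28 with TMM factors and -0.37 with size factors, and did not pass with either. A missed threshold does not show that the lines had equal contact with KLF4.

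The fragments between the genes went both ways. The fragment 110183487 to 110183822 (336 bp) was higher in both breast lines, with 30 and 149 contacts in BT483, 175 and 138 in SUM44, and 28 and 40 in GM06990. The log2 change was 1.13 (SE 0.26) in BT483, with an edgeR adjusted p of 0.00898, and 1.13 (SE 0.25) in SUM44, with an edgeR adjusted p of 0.00223. All 4 breast libraries lay between 1.24 and 1.38 times the expected count and GM06990 was at 0.45 and 0.76. The difference passed in 12 of 13 alternatives in each comparison, and the exception was the fit without GM06990 replicate 1, with 0.78 in BT483 and 0.77 in SUM44.

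Other fragments between the genes passed in 1 line each. In BT483 110109806 to 110123489 (-0.82) and 110220466 to 110237776 (-0.80) were lower, with edgeR adjusted p-values of 0.0340 and 0.0192. In SUM44 110102764 to 110106982 (-0.55) was lower and 110170369 to 110172671 (0.57) higher, with edgeR adjusted p-values of 0.0492 and 0.0342. Whether these changes differ between BT483 and SUM44 was tested directly, and 0 of the 27 fragments between the genes passed (smallest edgeR adjusted p = 0.211). Of the BT483 differences the one at 110109806 passed in 5 of 13 alternatives and the one at 110220466 in 10, and of the SUM44 differences the one at 110102764 passed in 4 and the one at 110170369 in 6. The 2 fragments that were lower in BT483 were long, at 13684 and 17311 bp.

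Fragment length was more closely tied to contact level in GM06990 than in the breast lines. Over all 2949 near cis targets the Spearman correlation of fragment length with observed over expected was 0.18 in BT483, 0.19 in SUM44 and 0.37 in GM06990, and over the 19 RAD23B fragments it was 0.25, 0.20 and 0.76 in the same lines. Targets under 1 kb had a median ratio of 0.744 in BT483, 0.719 in SUM44 and 0.628 in GM06990, and longer targets 0.998 in BT483, 0.969 in SUM44 and 1.06 in GM06990. Fragments of 1 library share its depth, so these values describe and are given without a p. With length in the background 0 RAD23B fragments passed in BT483 and 7 in SUM44. The 336 bp fragment passed in both, at 0.91 in BT483 (edgeR adjusted p = 0.0202) and 0.90 in SUM44 (edgeR adjusted p = 0.00646).

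Within the captured region the contacts of the stretch were spread widely, with a peak far from it. The 5 captured fragments with the most contacts took 11.6% of the contacts of the stretch in BT483, 11.7% in SUM44 and 10.6% in GM06990. When the captured region was divided into 5 sections of 68.2 kb, observed over expected was lowest in the section nearest to the stretch, at 1.11 ± 0.0313 in BT483, 1.11 ± 0.0279 in SUM44 and 1.07 ± 0.0600 in GM06990 (SD, n = 2 each). In the farthest section it was 2.14 ± 0.284 in BT483, 2.34 ± 0.0251 in SUM44 and 1.72 ± 0.111 in GM06990. In BT483 and SUM44 the level was higher in each successive section, and in GM06990 it peaked in the fourth at 1.81 ± 0.170. The telomeric fragments at like distance were also lowest with the section of the captured region nearest to them, at 0.596 ± 0.0858 in BT483, 0.607 ± 0.0259 in SUM44 and 0.436 ± 0.00731 in GM06990, against 0.794 ± 0.0682, 0.843 ± 0.0281 and 0.568 ± 0.0113 in the farthest section in the same lines.

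RAD23B and KLF4 differed in that profile by line. In the farthest section the RAD23B fragments were at 1.07 ± 0.136 in BT483, 1.43 ± 0.148 in SUM44 and 0.694 ± 0.0365 in GM06990, and both breast lines lay above GM06990 by more than the spread. In the nearest section they were at 0.693 ± 0.146 in BT483, 0.701 ± 0.00988 in SUM44 and 0.535 ± 0.0652 in GM06990, where BT483 replicate 1 (0.590) and GM06990 replicate 2 (0.581) nearly met. The KLF4 fragment in the farthest section was at 6.65 and 4.19 in BT483, 4.11 and 3.79 in SUM44, and 2.52 and 3.44 in GM06990, so that every breast library exceeded both GM06990 libraries there. In the second section from the stretch it was at 5.61 and 2.44 in BT483, 3.07 and 1.78 in SUM44, and 2.81 and 3.86 in GM06990, and the lines overlapped. The sections were not tested.

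**Figure D4:**
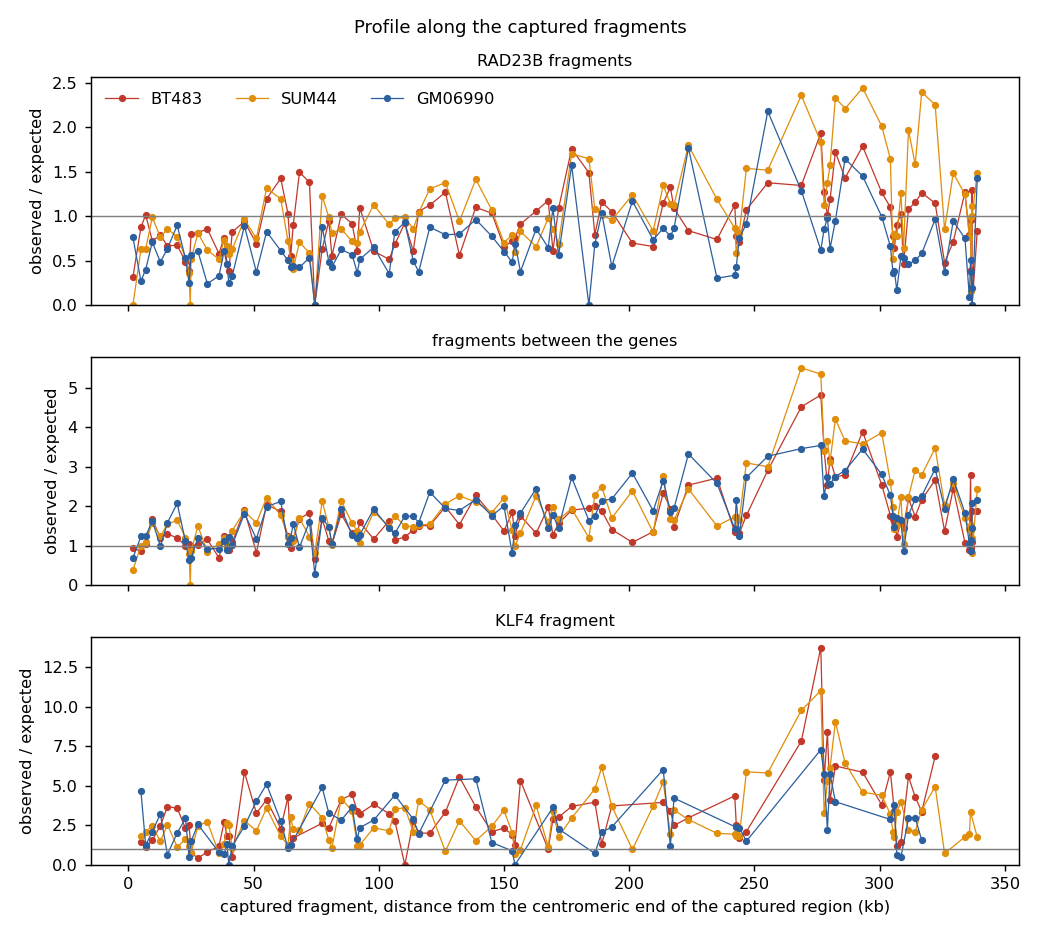
Observed over expected contacts of single captured fragments with the RAD23B fragments, the fragments between the genes and the KLF4 fragment (replicates summed), against their distance in kb from the end of the captured region nearest to the stretch; points need an expected count of at least 1, and vertical scales differ between panels. The highest values with the fragments between the genes lie at 269 kb in SUM44 and at 276 kb in BT483 and GM06990, and the 13.7 of BT483 with KLF4 lies at 276 kb.

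A single captured fragment, 111033955 to 111035778 (1824 bp), stood out with KLF4 in both breast lines. It lies 276 kb inside the captured region, 785 kb from the KLF4 fragment. With the KLF4 fragment it had 5 and 17 contacts in BT483, 19 and 11 in SUM44, and 1 and 7 in GM06990. Observed over expected was 13.7 in BT483 (95% counting interval 8.61 to 20.8), 11.0 in SUM44 (7.43 to 15.7) and 7.28 in GM06990. The replicates of GM06990 were 1.76 and 13.5, so the level there rests on 8 contacts that fell unevenly. This captured fragment was not high with KLF4 alone. With the fragments between the genes it was at 4.81 in BT483, 5.34 in SUM44 and 3.53 in GM06990. With the whole stretch it was at 4.19, 4.29 and 2.82 in the same lines.

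By the naming rule, which took captured fragments with at least 10 contacts, 13 fragments qualified for KLF4 in BT483, 27 in SUM44 and 4 in GM06990, and the rule favours high ratios at this depth. In BT483 the next highest were 111036599 to 111038407 (8.40), 111038717 to 111042644 (6.25), 111061680 to 111063600 (5.87) and 110801018 to 110808471 (5.86). In SUM44 they were 111020204 to 111033954 (9.78), 111038717 to 111042644 (9.06), 111042645 to 111046448 (6.45) and 110944770 to 110950033 (6.16). In GM06990 the 4 were 111020204 to 111033954 (11.1), 110969406 to 110974522 (6.03), 111035779 to 111036598 (5.72) and 110833315 to 110838268 (4.89), each with 10 contacts. The fragment 111033955 to 111035778, at 7.28 on 8 contacts, fell short of the minimum there. In BT483 and SUM44 4 of the 5 named fragments lay between 111020204 and 111063600.

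With RAD23B the highest ratios were lower and more spread out. In BT483 they were those of 111033955 to 111035778 (1.93), 111046449 to 111056677 (1.78), 110930755 to 110940017 (1.76), 111038717 to 111042644 (1.72) and 110824380 to 110829061 (1.49). The 44 contacts behind the first of these all came from BT483 replicate 2. In SUM44 they were those of 111046449 to 111056677 (2.44), 111073324 to 111076990 (2.39), 111020204 to 111033954 (2.36), 111038717 to 111042644 (2.33) and 111076991 to 111084049 (2.25), with between 49 and 76 contacts each. In GM06990 they were those of 111007184 to 111020203 (2.18), 110977458 to 110986571 (1.77), 111042645 to 111046448 (1.64), 110930755 to 110940017 (1.57) and 111046449 to 111056677 (1.45), with between 15 and 22 contacts each.

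**Figure D5:**
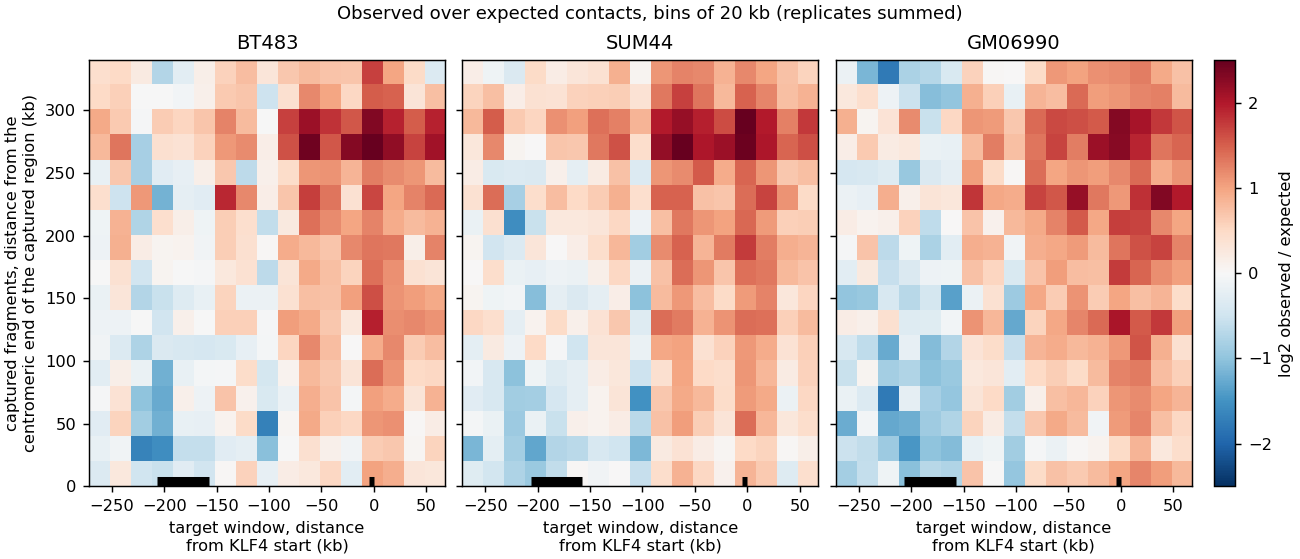
Log2 of observed over expected contacts (colour) between 20 kb bins of the captured region (vertical, kb from its end nearest to the stretch) and 20 kb target windows (horizontal, kb from the start of KLF4) with replicates summed; black bars are RAD23B and KLF4. Bins between 260 and 300 kb that join the KLF4 window are among the darkest in all 3 lines. In BT483 and SUM44 a bin that joins the second rise on the RAD23B side is as dark, and in GM06990 bins between 220 and 240 kb are.

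Single pairs of fragments were called where they exceeded the distance background of their line at an adjusted p of at most 0.01 with at least 5 contacts. BT483 had 5 called pairs among all near cis pairs of 9q31.2 (0.0017%), and 4 of them lay in the stretch. SUM44 had 4 (0.00136%), and all 4 lay in the stretch. GM06990 had 0 (0%), with 1343 pairs at an unadjusted p under 0.05, and a Poisson background called 4 there, 3 of them in the stretch. The captured fragment with the KLF4 fragment, described above, was called in both breast lines, with adjusted p-values of 3.3e-05 in BT483 and 0.000393 in SUM44. In GM06990 that pair had an unadjusted p of 0.000544.

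The other called pairs joined this and 2 further captured fragments to the sequence beside KLF4 or to the second rise. In BT483 111033955 to 111035778 also joined 110241988 to 110244649 with 6 and 19 contacts (15.8 times the expected count) and 110238956 to 110241987 with 7 and 14 contacts (13.3 times). The captured fragment 111036599 to 111038407 joined 110241988 to 110244649 with 1 and 18 contacts (9.50 times), nearly all from BT483 replicate 2. In SUM44 111033955 to 111035778 joined 110195013 to 110201199 with 16 and 18 contacts (13.9 times) and 110183823 to 110195012 with 17 and 15 contacts (13.3 times). The captured fragment 111056678 to 111061679 joined 110201200 to 110207271 with 14 and 6 contacts (13.8 times).

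The pairs called in 1 line were often high in the other without passing. The 3 pairs called in BT483 alone were at 8.94, 7.87 and 7.35 times the expected count in SUM44, with 24, 21 and 26 contacts. Those called in SUM44 alone were at 10.2, 9.67 and 3.07 times in BT483, with 15, 14 and 3 contacts. In GM06990 the 7 distinct pairs were between 4.48 and 7.86 times the expected count, on 5 to 8 contacts each. A call stands for a line and tests no difference between lines.

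RAD23B had 0 called pairs in any line. At an unadjusted p under 0.05 with at least 5 contacts, 10 of 1900 RAD23B pairs qualified in BT483, 39 in SUM44 and 2 in GM06990, against 0.513%, 0.725% and 0.455% of all near cis pairs of 9q31.2 in the same lines. Of the 100 pairs of the KLF4 fragment, 36 qualified in BT483, 40 in SUM44 and 25 in GM06990. The SUM44 share for RAD23B was 2.05%, and those of BT483 (0.526%) and GM06990 (0.105%) were near or under that of all pairs. Many of all near cis pairs lie farther apart than those of the stretch, and their expected counts are lower. The minimum of 5 contacts is harder to meet there, so these shares are not matched for distance or depth.

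The differences between lines were also tested for each captured fragment with each 20 kb target window. Of 3415 tested pairs 0 passed in any comparison (0%), and so 0 of the 344 pairs with a window of the stretch. Among those 344 an unadjusted edgeR p under 0.05 was found for 28 in BT483 over GM06990, 41 in SUM44 over GM06990 and 23 in BT483 over SUM44. Over all 3415 tested pairs it was found for 8.67%, 8.87% and 7.03% in the same comparisons. DESeq2 also called 0 pairs. The captured fragment 111033955 to 111035778 with the window that holds KLF4 had 24 and 70 contacts in BT483, 57 and 46 in SUM44, and 14 and 25 in GM06990. The log2 change was 0.90 (SE 0.35) in BT483 over GM06990 (edgeR adjusted p = 0.408), 0.07 (SE 0.34) in SUM44 over GM06990 (edgeR adjusted p = 0.980) and 0.83 (SE 0.31) in BT483 over SUM44 (edgeR adjusted p = 0.503). None of these passed.

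Among the pairs with a window of the stretch, the one with the lowest adjusted p in each comparison involved another captured fragment. The captured fragment 111038408 to 111038716 with the window 110060001 to 110080000, inside RAD23B, had 22 and 14 contacts in SUM44 and 2 and 1 in GM06990, a log2 change of 2.73 (SE 0.78, edgeR adjusted p = 0.0896). In BT483 the same pair had 2 and 18 contacts. The captured fragment 110775652 to 110780159 with the window 110180001 to 110200000 had 0 and 7 contacts in BT483 and 22 and 28 in SUM44, a log2 change of -2.45 (SE 0.58, edgeR adjusted p = 0.0942). The captured fragment 110838269 to 110838602 with the window 110160001 to 110180000 had 0 and 0 contacts in BT483 and 4 and 7 in GM06990 (edgeR adjusted p = 0.220), and no fold is given against libraries at 0. That pair, with 8 and 12 contacts in SUM44, and the pair of 110775652 reached the count filter only through SUM44. The pair of 111038408 reached it only through the breast lines. For 110775652 and 111038408 the filter favours the line that is higher in the comparison.

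The profile of the stretch was most alike between the replicates of SUM44 and least between those of BT483. Across the 100 captured fragments the Pearson correlation of log2 observed over expected was 0.60 between the BT483 replicates, 0.90 between those of SUM44 and 0.81 between those of GM06990. For the RAD23B fragments alone it was 0.06 in BT483, 0.69 in SUM44 and 0.36 in GM06990, and for the KLF4 fragment 0.24, 0.30 and 0.34 in the same lines. Captured fragments of 1 library share its depth and its efficiency of capture, so these values are descriptions. The profiles of KLF4 and RAD23B correlated at 0.23 in BT483, 0.52 in SUM44 and 0.35 in GM06990.

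The 20 kb windows outside the stretch with the profile most like that of KLF4, over the 100 captured fragments with all lines summed, began at 110360001 (r = 0.785), 110500001 (r = 0.773) and 110600001 (r = 0.767), where the median over 489 windows was 0.225. These lie between the stretch and the captured region. For RAD23B they began at 111120001 (r = 0.771), 111240001 (r = 0.763) and 110540001 (r = 0.756), with a median over windows of 0.217, and the first 2 of these lie on the telomeric side. The windows named for the genes held between 7587 and 13956 contacts with all lines summed. Few contacts in a window hold its correlation down, and the windows were not matched for contacts.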

How the data were processed

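For each captured and target HindIII fragment the authors deposited a raw count of read pairs in 1 column per replicate, and these counts were used as they stand. The submitters' processing notes name CASAVA 1.8 and the build GRCh37 (hg19). The aligner was not given in the sources used here. Gene positions came with the rule that defined the stretch, and promoters from RefSeq (GRCh38.p14), whose coordinates were not mixed with those of the counts. The members, lists and tests were chosen with earlier results of these data known.

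Expected counts came from a negative binomial regression per library over all near cis pairs of 9q31.2, with log10 distance as a cubic spline (4 knots) and, for the efficiency of capture, the log of each captured fragment's trans count. Calls used the one-sided upper tail with both replicates summed and Benjamini-Hochberg adjustment over the pairs of the line. Between-line tests used edgeR 4.0.16 (quasi-likelihood F test, R 4.3.3, all 6 libraries in 1 fit, threshold 0.05) with the log expected count as offset, on target fragments of the 3 risk loci with at least 50 contacts in 1 line, or on pairs of captured fragments with 20 kb windows with at least 20 contacts in 1 line. All 49 members passed that filter. The RAD23B fragments that begin at 110064745, 110061434 and 110069038 passed it only through the breast lines. In GM06990 they had 12 and 7, 29 and 17, and 15 and 30 contacts. For such fragments the filter favours calls that are higher in the breast lines. Segments, the fragments with the gene starts, called pairs, fragments and windows past the threshold, the 5 captured fragments per line and gene with the highest ratio among those with at least 10 contacts, and the 3 windows most alike in profile were named; the neighbours of KLF4, the second rise, and the pairs with the lowest p were named after their values were seen. Profiles were compared as log2 ratios with a pseudocount of 1. Alternatives were other scalings, DESeq2 1.42.0, no count filter, the replicate number as a block, each replicate left out, other window sizes, a Poisson background, other background terms, and stricter thresholds; fragment length in the background of levels and differences was added after seeing the data. The fragment test and the calls were run on simulated counts. Their spread was a fixed value for the fragment test and that of the fitted background for the calls. Such counts do not copy the differences between the BT483 replicates, so they do not show how the tests behave on these data. The test of pairs between lines was not simulated. Other scripts ran in Python 3.11.15.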

Additional observations from a re-analysis of the deposited data

How the results depend on the processing

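For fragments of the stretch that differ from GM06990, the counts of 5 in BT483 and 8 in SUM44 became 1 and 1 with DESeq2 (4.52% and 12.4% of all fragments) and 1 and 2 in 20 kb windows (19% and 41.6% of all windows), and the BT483 count became 1 with fragment length in the background (13.1% of all fragments). Leaving out 1 replicate gave 1 to 10 in BT483 (2.95% to 20.2% of all fragments) and 2 to 19 in SUM44 (11.3% to 33.8%), and 0 to 1 for BT483 over SUM44. The largest counts came without a BT483 replicate, and the smallest without a replicate of SUM44 or GM06990; a line left with 1 library was assumed to vary like the others. Pairs of captured fragments with windows of the stretch gave 1 for SUM44 over GM06990 in 50 kb windows, where 0.257% of all pairs passed, and 0 to 1 in each comparison when a replicate was left out, where at most 0.644% of all pairs passed. Called pairs of the stretch were 17 in BT483, 116 in SUM44 and 3 in GM06990 with a Poisson background, and 0 to 3 in BT483 and 1 to 5 in SUM44 with 1 replicate alone.

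With a background of centromeric targets only, RAD23B was at 0.704 in BT483, 0.813 in SUM44 and 0.512 in GM06990, the fragments between the genes at 1.38, 1.48 and 1.35 in the same lines, and KLF4 at 2.20 in SUM44 and 2.11 in GM06990. With fragment length added, the fragments between the genes were at 1.73 in SUM44, and KLF4 was at 2.25 in SUM44 and 1.97 in GM06990. Without the captured fragment with the most contacts, the fragments between the genes were at 1.76 in SUM44. Raw counts raised the correlation between replicates to 0.852 in BT483, 0.980 in SUM44 and 0.954 in GM06990. Levels as shares of near cis contacts per 100 kb are on another scale and were not set against the ratios.

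The fragment with the RAD23B start was at 0.051 in BT483 over GM06990 with length added, and at -0.22 (TMM) and -0.30 (size factors) in SUM44 over GM06990. Leaving out 1 replicate moved the KLF4 fragment between -0.010 and 0.96 in BT483 over GM06990, and between -0.0067 and 0.96 in BT483 over SUM44, the lowest being without BT483 replicate 1. In SUM44 over GM06990 it moved between -0.091 and 0.073, and was at 0.11 with near cis totals, 0.19 with length added, -0.28 with TMM factors and -0.37 with size factors. The cause of these changes was not tested.

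The replicate numbers did not pair the samples: deviations of same-numbered libraries correlated at 0.03 between BT483 and SUM44, -0.02 between BT483 and GM06990 and -0.02 between SUM44 and GM06990 over 5466 fragments. With the replicate block 4 members differed in BT483 over GM06990 (10.8% of all fragments), 6 in SUM44 over GM06990 (22.3%) and 0 in BT483 over SUM44 (0.146%). With it 0 pairs with windows of the stretch differed in any comparison, where at most 0.0586% of all pairs did. The depth of BT483 replicate 1 and the low counts of single pairs, often under 20 contacts, limit what can be detected.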
